A study of Mus musculus with 6 samples.

Results

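AP-1 is a family of dimeric transcription factors, and the 6 subunit genes described here are Fos, Fosb and Fosl2 of the Fos family and Jun, Junb and Jund of the Jun family. They were taken by symbol from a table of 13724 gene entries, in which each symbol stood on 1 entry. All 6 libraries came from wild type mice of the strain C57Bl6/J that had been exposed to warmth in 3 numbered warm challenges. From each challenge 2 libraries were sequenced, total RNA (the input) and the RNA that came down with phosphorylated ribosomal protein S6 (the immunoprecipitate, IP). The antibody recognised S6 phosphorylated at residues 244 and 247, and the method is called PhosphoTRAP. The anterior hypothalamus was dissected from sections of 0.5 mm, and the labels call this tissue preoptic neurons. No library came from mice at another temperature, so a difference between IP and input is a difference between fractions and is not tied to warmth. The labels do not say whether the challenges used separate or pooled mice, and the p-values measure the spread between these libraries, which may be partly technical.

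S6 is a protein of the small ribosomal subunit that becomes phosphorylated in active neurons, so its capture enriches mRNA under translation in those cells. AP-1 binds DNA as a dimer of leucine zipper proteins. Fos proteins need a Jun partner, whereas Jun proteins can also pair with each other. Fos, Fosb and Junb are immediate early genes, transcribed within minutes of calcium or cAMP signalling through factors such as CREB and SRF. Jun is controlled in part by JNK kinases, and Jund is known for steady expression in many cell types. Fosb also gives rise to a truncated, long-lived splice form, ΔFosB, which gene-level values do not separate from full-length Fosb.

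The promoters of Fos, Fosb and Junb held the letters TGACG, the core of the cAMP response element that CREB binds, and are printed here. These 3 are among the 5 subunits called higher in IP below. So are Fosl2 and Jun, whose promoters held no TGACG, and a link between these letters and enrichment was not tested. The windows are RefSeq sequences (build GRCm38.p6) that end at the base before each gene's listed start, and all 6 members matched the table. In the first 2 lines capitals mark every match to a motif searched, and in the Fosb line, limited to 30 bases, they mark TGACG alone.
Fos (chr12:85473740-85473889, plus strand): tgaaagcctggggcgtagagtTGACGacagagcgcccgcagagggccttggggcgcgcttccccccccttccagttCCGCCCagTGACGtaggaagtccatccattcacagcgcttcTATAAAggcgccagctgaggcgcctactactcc
Junb (chr8:84978749-84978898, minus strand): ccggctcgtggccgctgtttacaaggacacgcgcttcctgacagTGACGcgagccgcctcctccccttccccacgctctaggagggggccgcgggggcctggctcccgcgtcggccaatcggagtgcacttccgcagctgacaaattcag
Fosb (chr7:19310089-19310118, minus strand): atggagttgcgggTGACGcaagcgcggggg

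In Fos, TGACG lay 66 to 62 and again 129 to 125 bases upstream of the start, with a GC box (GGGCGG on either strand) at 74 to 69 and a TATA box (TATAAA) at 33 to 28. The Fosb match lay 60 to 56 bases upstream and that of Junb 106 to 102. Both strands of the 250 bases before the start were searched in 32851 RefSeq promoters. TGACG stood in 17.8% of them and in 3 of the 6 members. G and C made up 58.4% of the searched bases in Fos, 66.4% in Junb and 68.8% in Fosb, and the 17.8% was not matched for this. The GC box stood in 32.7% of all promoters and in 4 members, Fos, Fosb, Fosl2 and Jun, and TATAAA in 12.4% and in Fos. The full element TGACGTCA (1.55% of all promoters, and it contains TGACG), the AP-1 site TGACTCA (4.46%) and the CArG box bound by SRF (1.47%) were found in none of the 6 windows, which says only that these letters are not there. Other starts of a gene were not searched.

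Deposited values were RPKM, reads scaled to gene length and library size, which allows levels of different genes to be set side by side. Summed RPKM lay between 374708 and 496125 per library, and the absolute read depth is unknown. Along the axis with the most variance (43.2%) the inputs lay apart from the IP libraries, and on the next (26.0%) IP 1 stood at -49.0 against -10.0 to 19.9 for the other libraries. Folds are therefore also given without IP 1. The test took in the 12328 genes that reached 1 RPKM in 3 libraries or more, and each of the 6 members exceeded 1 RPKM in all 6 libraries.

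Fos, Fosb, Fosl2, Jun and Junb, 5 of the 6 subunits, were higher in IP, and Jund did not pass (limma, adjusted p under 0.05 over all genes tested). Among all genes tested 0.892% were called higher in IP and 3.29% lower, or 110 and 406 genes. When the challenge number entered the fit as a block, the same 5 subunits passed, beside 1.33% of all genes called higher. Median scaling of the libraries gave 121 and 128. The median log2 fold of the 6 members was 2.24, beside -0.18 for all genes tested. In this bulk tissue, the number of cells with phosphorylated S6 that held an mRNA and its amount per cell cannot be told apart. Every IP library lay above every input library for all 6 subunits, as for 6.85% of all genes tested. For 5 of them the lowest IP value was at least 2 times the highest input value, as for 0.414% of all genes.

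**Figure D1:**
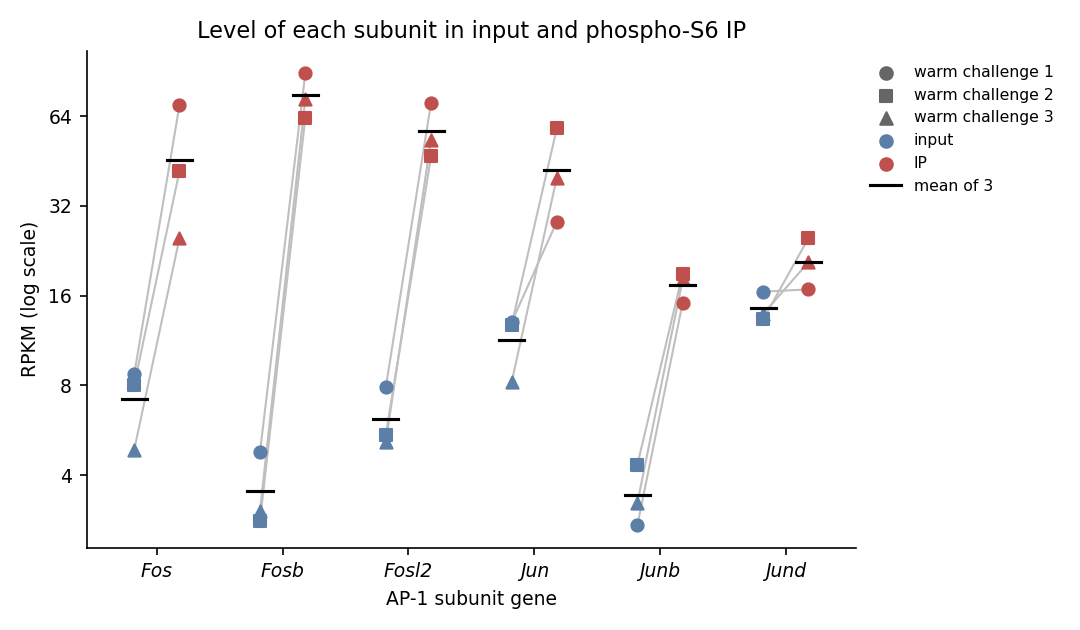
RPKM of each AP-1 subunit gene on a log axis, with input libraries in blue, IP libraries in red, marker shapes for the 3 warm challenges, grey lines joining the fractions of a challenge and black bars for the mean of 3. The lines of Fosb are the steepest, from 2.81 to 4.78 RPKM in input to 63.2 to 89.1 in IP, and those of Jund the flattest.

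Fosb, whose products drive lasting AP-1 activity after repeated stimulation, stood at 4.78, 2.81 and 3.04 RPKM in inputs 1, 2 and 3 and at 89.1, 63.2 and 73.1 RPKM in IP 1, 2 and 3. The lowest IP library was 13.2 times the highest input. On the log2(RPKM + 1) scale, on which folds of low genes are understated, its log2 fold was 4.08 (SE 0.24, limma adjusted p = 0.000308), which ranked 1 of 12328. Fosl2, which encodes the Fos-related protein Fra-2, stood at 7.89, 5.47 and 5.18 RPKM in the inputs and at 70.9, 46.9 and 53.3 RPKM in IP. No IP value came near an input value, and the ratio of the lowest IP to the highest input was 5.94. Its log2 fold of 3.01 (SE 0.25, limma adjusted p = 0.00131) ranked 5. Fos, the subunit most used as a histological marker of recent firing, stood at 8.71, 8.05 and 4.87 RPKM in the inputs and at 69.7, 41.9 and 24.9 RPKM in IP. The fractions did not overlap, but the IP libraries spread 2.80-fold among themselves, the widest range of any subunit in either fraction. Its log2 fold was 2.42 (SE 0.36, limma adjusted p = 0.0161), with rank 14.

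Junb, an immediate early Jun protein that activates transcription less than Jun does at many sites, was the least abundant subunit in IP. It stood at 2.72, 4.33 and 3.23 RPKM in the inputs and at 15.1, 19.0 and 18.1 RPKM in IP. These IP values were the closest to each other of any subunit, with a coefficient of variation of 11.6%, and all lay far above the inputs. Its log2 fold was 2.07 (SE 0.23, limma adjusted p = 0.00496), with rank 25. Jun, the partner best known for homodimers and for activation by JNK, stood at 13.02, 12.8 and 8.19 RPKM in the inputs and at 28.3, 58.3 and 39.8 RPKM in IP. The fractions were separate, with IP 1 the lowest of the IP libraries. Its log2 fold was 1.77 (SE 0.30, limma adjusted p = 0.0231), with rank 39. Jund stood at 16.5, 13.3 and 13.9 RPKM in the inputs and at 16.8, 24.9 and 20.7 RPKM in IP. IP 1 and input 1 were nearly level. Its log2 fold of 0.48 (95% interval -0.03 to 0.98, limma adjusted p = 0.226) ranked 1073, and an increase of that size or none could not be told apart with 3 libraries a group.

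**Figure D2:**
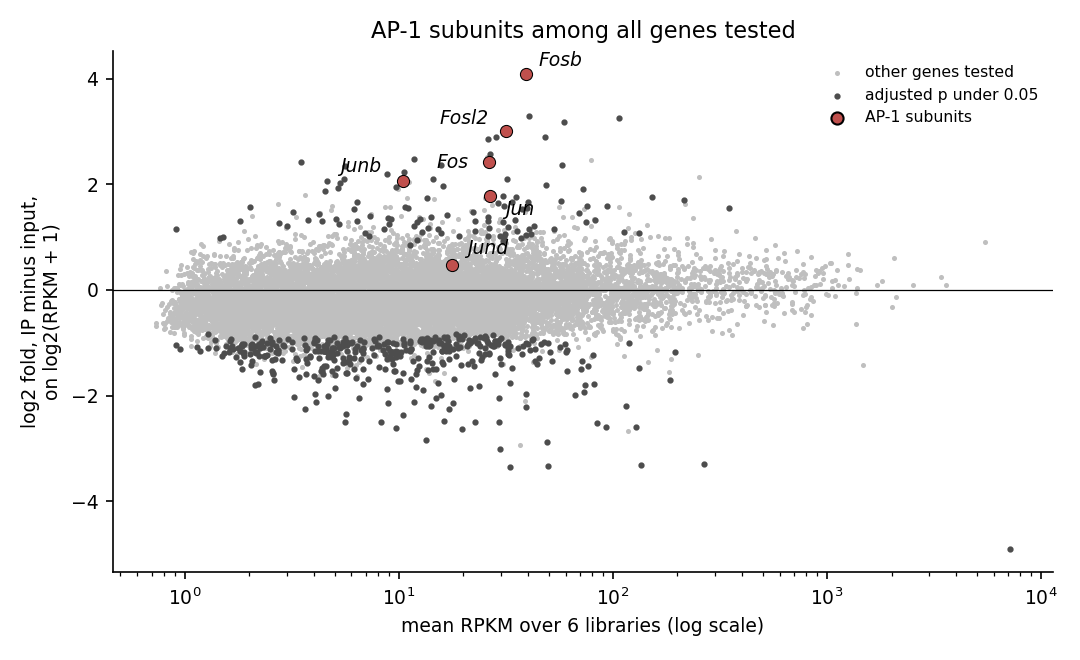
Each point is 1 of 12328 genes tested, with mean RPKM over 6 libraries on a log axis and the log2 fold of IP minus input on log2(RPKM + 1); dark points have an adjusted p under 0.05 (limma) and red points are the AP-1 subunits. Fosb has the highest fold of all points (4.08), and Jund (0.48) lies within the grey cloud.

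The calls of Fosb, Fosl2 and Junb held whichever single library was left out, with adjusted p-values (limma) up to 0.00386, 0.0141 and 0.0332. That of Fos ended without input 1, 2 or 3 or IP 2 (log2 folds over the 6 omissions 2.06 to 2.78, adjusted p 0.0106 to 0.0608). That of Jun held without IP 1 and ended in the other 5 omissions (1.52 to 2.02, adjusted p 0.00919 to 0.0903). With IP 1 left out the log2 folds were 3.95 for Fosb, 2.85 for Fosl2, 2.06 for Fos, 2.16 for Junb, 2.02 for Jun and 0.62 for Jund, and the same 5 genes passed. After median scaling, which moved the median of all genes from -0.18 to -0.015, the folds in that order were 4.25, 3.19, 2.60, 2.23, 1.96 and 0.66.

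**Figure D3:**
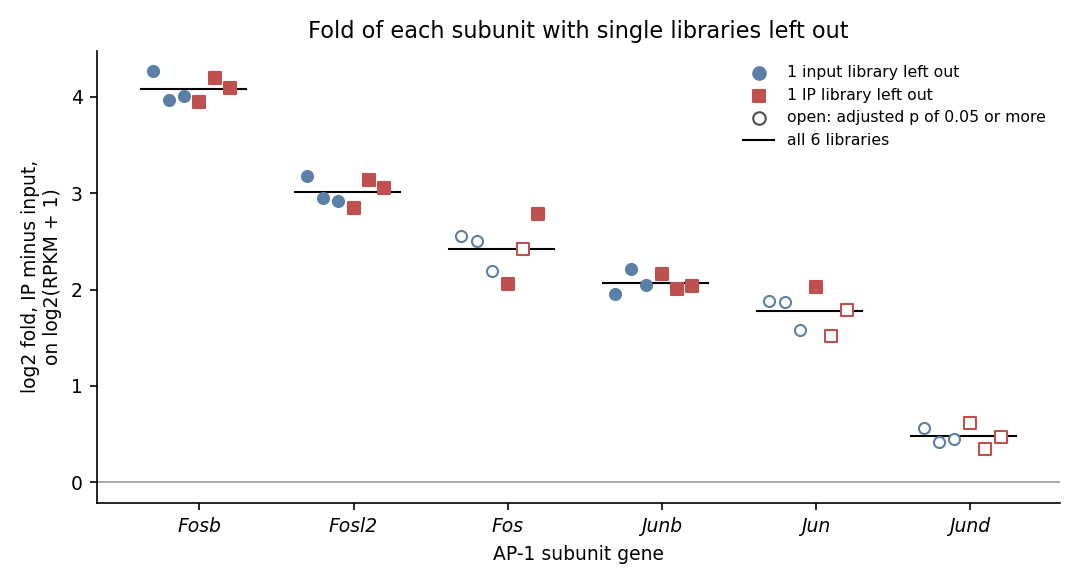
Log2 fold of IP minus input for each subunit with 1 library left out at a time, blue circles for inputs 1 to 3 and red squares for IP 1 to 3 from left to right, open where the adjusted p was 0.05 or more (limma), and a black line for all 6 libraries. Fosb, Fosl2 and Junb keep filled symbols throughout, whereas Jun has 1 filled symbol and Jund none.

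Enrichment was also taken within each warm challenge as the log2 ratio of IP to input RPKM with no pseudocount. It was 4.43 ± 0.19 for Fosb, 3.21 ± 0.14 for Fosl2, 2.58 ± 0.37 for Fos, 2.37 ± 0.21 for Junb, 1.87 ± 0.65 for Jun and 0.50 ± 0.45 for Jund (mean ± SD, n = 3 challenges). Fosl2 thus had the smallest spread and Jun the largest. As plain folds, Fosb was 18.6, 22.5 and 24.0 times higher in IP in challenges 1, 2 and 3. Fos was 8.01, 5.20 and 5.12 times higher, with challenge 1 above the others. Jun was 2.18, 4.57 and 4.86 times higher and Jund 1.02, 1.87 and 1.49 times, with challenge 1 the lowest for both.

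**Figure D4:**
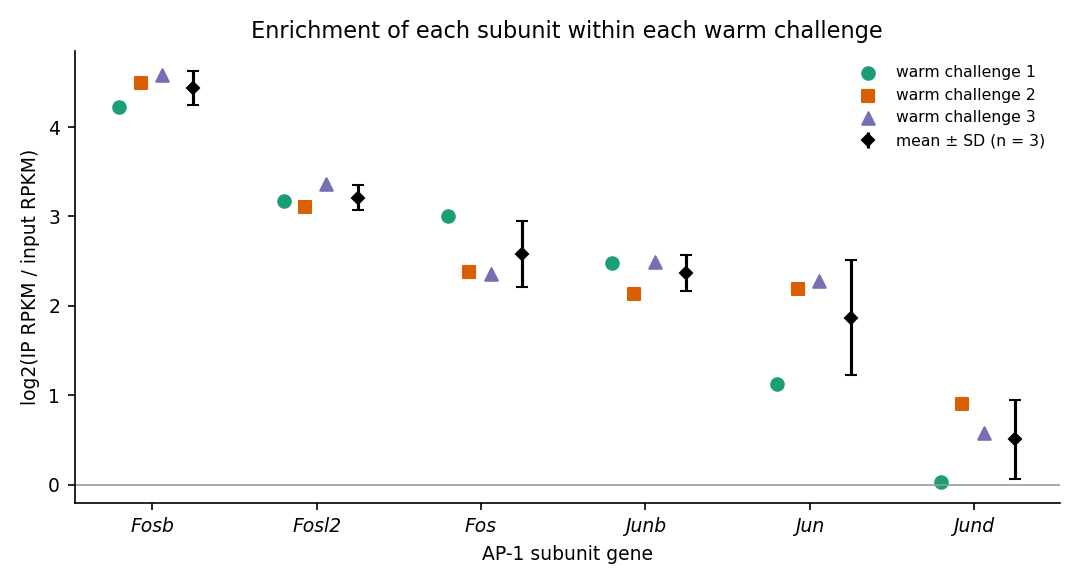
Log2 ratio of IP to input RPKM for each subunit in each warm challenge (coloured symbols), with the mean and SD of 3 challenges in black and the zero line in grey. Fosb lies above 4.2 in every challenge, and challenge 1 is high for Fos but low for Jun (1.12) and Jund (0.03).

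Differences in enrichment between subunits were compared for all 15 pairs by the log2 ratio of the 2 genes in each library, IP against input. In 10 of the 15 pairs the ratio did not overlap between the fractions. With 3 libraries a group the exact two-sided permutation test cannot go below p = 0.10, which these 10 pairs reached (0.15 adjusted over the 15 pairs), so no pair could pass. That test does not use the pairing by challenge. An exact sign-flip test of the differences within challenges does, and it cannot go below p = 0.25. That value was reached by 13 pairs, the same 10 among them. Fosl2 with Fos, Fosl2 with Junb and Fos with Jun also reached it, although their ratios overlapped between the fractions. Fosb exceeded Jund by 3.93 ± 0.31 log2 units (SD over 3 challenges), Jun by 2.57 ± 0.46, Junb by 2.07 ± 0.31, Fos by 1.85 ± 0.55 and Fosl2 by 1.22 ± 0.17, and each of these 5 differences was positive in all 3 challenges. Jun exceeded Jund by 1.36 ± 0.31, again in all 3 challenges. Fos and Junb differed by 0.21 ± 0.33 (exact permutation p = 0.70), with challenge 3 in the opposite direction at -0.13. Junb and Jun differed by 0.50 ± 0.75 (exact permutation p = 0.30) and Fos and Jun by 0.71 ± 1.01 (exact permutation p = 0.30), both mainly from challenge 1, where the differences were 1.36 and 1.88.

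The order of levels also changed between the fractions. In input the order of the means was Jund (14.6 ± 1.70 RPKM), Jun (11.3 ± 2.72), Fos (7.21 ± 2.05), Fosl2 (6.18 ± 1.49), Fosb (3.54 ± 1.08) and Junb (3.42 ± 0.82) (SD, n = 3). Neighbours with separate ranges were Jund above Jun and Fosl2 above Fosb. Fosb and Junb did not differ beyond their spread, and Fosb was the higher of them in 1 of 3 inputs. In IP the order was Fosb (75.1 ± 13.1 RPKM), Fosl2 (57.0 ± 12.5), Fos (45.5 ± 22.6), Jun (42.2 ± 15.1), Jund (20.8 ± 4.08) and Junb (17.4 ± 2.01). Jun above Jund was the one pair of neighbours with separate ranges, although Fosb exceeded Fosl2 and Jund exceeded Junb in each of the 3 IP libraries. Fos and Jun changed places between IP libraries, with Fos ahead in IP 1 alone.

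Summed over each family, the Fos genes stood at 21.4, 16.3 and 13.1 RPKM in the inputs and at 230, 152 and 151 RPKM in IP. The Jun genes stood at 32.2, 30.4 and 25.3 RPKM in the inputs and at 60.3, 102 and 78.7 RPKM in IP. The ratio of the Fos to the Jun sum was 0.664, 0.537 and 0.517 in the inputs and 3.81, 1.49 and 1.92 in IP, so the Jun genes predominated in every input and the Fos genes in every IP library. IP 1 had the highest value of the 3 IP libraries for each Fos gene and the lowest for each Jun gene, a pattern seen after the values were known. As a share of the summed RPKM of the 6 genes, the Fos family made up 36.3 ± 3.13% of input and 68.3 ± 9.95% of IP (exact permutation p = 0.10, the smallest possible, and 0.16 adjusted over 8 shares). Fosb held 7.62 ± 1.48% of input and 29.1 ± 3.72% of IP, and Jund 31.8 ± 3.94% and 8.21 ± 2.13%, both without overlap (exact permutation p = 0.10 each). The share of Fosl2 was 13.3 ± 1.52% and 22.0 ± 3.17%, also without overlap. In the exact sign-flip test, paired by challenge, the shares of the Fos family, Fosb, Jund and Fosl2 each gave p = 0.25, its smallest possible. The share of Jun gave the same value, although its fractions overlapped. The share of Fos was 15.4 ± 2.39% and 17.1 ± 6.62% (exact permutation p = 0.80), a difference of 1.74 percentage points that became -1.73 without IP 1. Junb held 7.58 ± 2.22% and 6.86 ± 1.43% (exact permutation p = 0.60), a difference of -0.72 points that became 0.12 without input 2 and 0.095 without IP 1. Jun held 24.3 ± 2.99% and 16.7 ± 6.61% (exact permutation p = 0.20), a difference of -7.64 points that was -4.19 without IP 1. The sum of the 6 genes was itself 46.2 ± 7.63 RPKM in input and 258 ± 30.2 RPKM in IP, so a share and a level need not differ in the same direction.

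**Figure D5:**
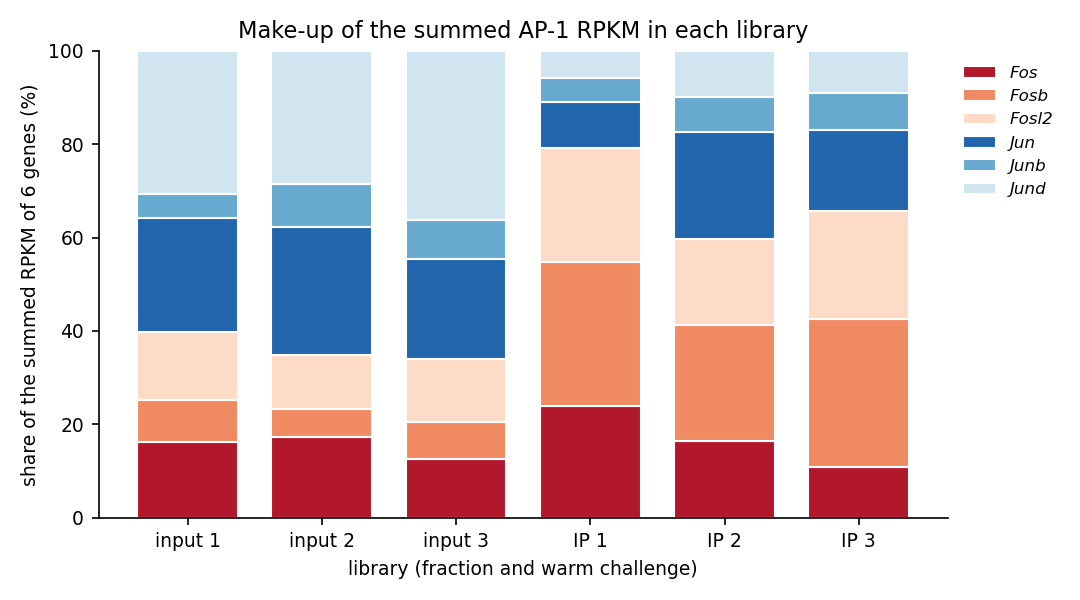
Share of each subunit in the summed RPKM of the 6 genes, 1 stacked bar per library, Fos family in reds and Jun family in blues, in percent. The red parts fill 34.1% to 39.9% of the input bars and 59.8% to 79.2% of the IP bars.

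Over the 5 lists of other pathway genes 86 were tested, of which 1 was higher and 2 were lower in IP (1.16% and 2.33%), near the 0.892% and 3.29% of all genes tested. At an unadjusted p under 0.05, 5.04% of all genes tested were higher and 19.3% lower, and the counts for each list are given for comparison with those shares. Among other leucine zipper genes that pair or compete with AP-1, 1 of 13 tested was higher in IP and 0 lower (median log2 fold 0.02), with 3 higher and 4 lower at an unadjusted p under 0.05 (limma). The gene that passed was Fosl1, which encodes Fra-1, the remaining Fos family gene and not among the 6 described. It entered the test through its IP libraries alone, since each input lies under the filter of 1 RPKM, and with a filter of 5 RPKM it was not tested and 0 genes of this list were called higher (limma). It stood at 0.949, 0.149 and 0.104 RPKM in the inputs and at 10.2, 4.38 and 5.23 RPKM in IP. Inputs 2 and 3 lie close to the table's lower limit of 0.1 RPKM, and the fractions did not overlap. Its log2 fold was 2.41 (SE 0.33, limma adjusted p = 0.0122), but 4.06 with a pseudocount of 0.1, and its call ended without input 2 (adjusted p = 0.0608) or input 3 (0.0509). With an IP library left out it fell below the filter and was not tested. Atf3, a stress-induced partner of Jun, had 1.63 (limma adjusted p = 0.0862 without the block and 0.0216 with it), and 2.83 with a pseudocount of 0.1. The Atf3 inputs were 1.71, 0.314 and 0.11 RPKM and the IP values 9.25, 3.16 and 1.76 RPKM. Inputs 2 and 3 lie under the filter of 1 RPKM, and IP 3 was nearly level with input 1. The size of this fold is therefore uncertain, with or without the block.

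Of 25 activators of Fos transcription, 0 were higher and 1 lower in IP (median -0.13), with 1 and 4 at an unadjusted p under 0.05 (limma). The lower one was Elk1, an SRF partner that is activated by ERK, at 13.5, 12.3 and 12.8 RPKM in the inputs and 5.54, 4.28 and 5.94 RPKM in IP. Its values were tight in both fractions and separate, with a log2 fold of -1.16 (SE 0.21, limma adjusted p = 0.0274), a call that held without IP 1 and ended in the other 5 omissions. Srf itself stood at 6.01 ± 0.059 and 6.58 ± 1.11 RPKM (SD, n = 3 each) with a log2 fold of 0.10 (limma adjusted p = 0.809), and Creb1 had -0.62 (limma adjusted p = 0.195). With the block Rps6ka3, a kinase of the ribosomal S6 kinase family that phosphorylates CREB, was higher (log2 fold 0.97, limma adjusted p = 0.0439, against 0.157 without it).

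Of 15 JNK kinases and scaffolds, 0 were called in either direction (limma), with 1 higher and 2 lower at an unadjusted p under 0.05 and a median of -0.03. Mapk8, which encodes JNK1, had a log2 fold of -0.66 (limma adjusted p = 0.0992) and Mapk9, which encodes JNK2, -0.53 (limma adjusted p = 0.170). Of 17 genes for the turnover of Fos and Jun mRNA and protein, 0 were higher and 1 lower (median 0.02), with 1 and 4 at an unadjusted p under 0.05. Zfp36l1, which binds AU-rich elements and promotes mRNA decay, stood at 12.6, 7.48 and 8.84 RPKM in the inputs and at 2.60, 2.57 and 2.86 RPKM in IP. The IP values hardly varied and lay well below the inputs, with a log2 fold of -1.50 (SE 0.24, limma adjusted p = 0.0175), and the call held without IP 1 or IP 3 and ended in the other 4 omissions. Its relative Zfp36 had -1.21 (limma adjusted p = 0.0558, and 0.0359 with the block), and -2.07 with a pseudocount of 0.1. The Zfp36 inputs were 3.83, 3.19 and 1.57 RPKM and the IP values 1.19, 0.472 and 0.297 RPKM. With IP values this low, the size of the fold depends on the pseudocount.

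Of 16 tested genes that have been reported as AP-1 targets, 0 were called (limma), with 2 higher and 2 lower at an unadjusted p under 0.05 and a median of -0.12. Nts, which encodes neurotensin, stood at 66.3 ± 32.6 RPKM in input, and in IP it reached 171 ± 39.6 RPKM (SD over 3 libraries), with a log2 fold of 1.44 (limma adjusted p = 0.0583, and 0.0467 with the block). The cell cycle gene Ccnd1 stood at 17.5 ± 0.053 and 9.89 ± 0.77 RPKM, with a log2 fold of -0.77 (limma adjusted p = 0.0596). Another 4 of the genes in this list had values too low to be tested. Without IP 1 the counts of these lists (limma) were 1 higher and 1 lower among leucine zipper genes, 1 and 2 among activators of Fos, 0 and 2 among JNK genes, 1 and 3 among turnover genes and 0 and 2 among reported targets. Over all genes tested the same omission gave 3.62% higher and 10.2% lower, so calls became more frequent outside these lists too. The additions higher in IP were Maff, Map2k2 and Fbxw7, which encodes a ubiquitin ligase subunit that targets Jun.

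Profiles over the 6 libraries were compared after centring each gene's log2(RPKM + 1) on its own mean, and likeness was the root-mean-square difference in log2 units, against 9082 other genes. Fosl2 was the nearest gene to Fosb (0.54), followed by Bdnf, a neurotrophin (0.70), and Rrad, a small GTPase (0.72). Nearest to Fosl2 were Crh, corticotropin-releasing hormone (0.28), Bdnf (0.33) and Fosl1 (0.35). Fosl1 entered through its IP mean of 6.59 RPKM, beside 0.40 RPKM in input, and its likeness rests on the pseudocount. Nearest to Fos were Gem, another small GTPase of the Rrad family (0.24), Rasd1 (0.25), and Nms, neuromedin S (0.26). For Jun they were Asphd1, Cd164l2 and Gm13889 (0.22 to 0.28), and for Junb Ercc1, Srxn1 and Gprasp2 (0.31 to 0.33). Jund had the closest neighbours, Zswim3, St8sia5 and Smarce1 (0.071 to 0.099), none of them past the threshold (limma adjusted p = 0.169 to 0.208). The fold of Jund (0.48) lies among those of genes not called, where the usual distance between genes was not measured. Gem, Rasd1, Nms, Cd164l2, Zswim3 and St8sia5 had input means under 5 RPKM and, like Fosl1, entered through their IP means. For the neighbours of Fos the means were 2.31 to 3.29 RPKM in input and 17.2 to 21.2 RPKM in IP. Jun and Junb were nearer to each other (0.35) than either was to any Fos gene (0.59 to 1.25). The members did not group by family throughout. Fos was nearer to Junb (0.59) and Jun (0.69) than to Fosb (0.93), and Junb was nearer to Fos than to Jund (0.83).

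Markers of other cell types differed between the fractions as well. Of 10 oligodendrocyte markers 8 were lower in IP and 0 higher (median -1.94), with summed RPKM of 959 to 1069 in input and 284 to 343 in IP. Erythroid genes were higher, 3 of 3 tested, with a sum of 14.1 to 50.3 RPKM in input and 202 to 567 RPKM in IP. Of 8 pan-neuronal markers tested and of 10 astrocyte markers 0 were called (limma), with medians of 0.19 and -0.33 and with 1 higher and 3 lower, respectively, at an unadjusted p under 0.05. The pan-neuronal sum was 4855 to 6140 RPKM in input and 4226 to 7627 RPKM in IP, and the astrocyte sum 315 to 432 and 296 to 322 RPKM. Of 4 microglial markers tested 0 were called (limma), and 0 had an unadjusted p under 0.05, with a sum of 15.1 to 28.5 RPKM in input and 12.6 to 15.6 RPKM in IP. Of 10 endothelial and pericyte markers 3 had values and 2 were tested, of which 1 was lower. Of 4 ependymal markers tested 1 was lower (median -1.26), and 3 were lower at an unadjusted p under 0.05 (limma). Over all genes tested 0.892% were called higher and 3.29% lower, or 5.04% and 19.3% at an unadjusted p under 0.05. The input thus held RNA of glia beside that of neurons, although the labels name neurons alone, and the part of cell makeup in the AP-1 folds was not tested.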

How the data were processed

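The authors deposited 1 table of linear RPKM per gene, per the file headers, with 1 column for each of 3 input and 3 IP libraries. The submitters' processing notes name build mm9. Which aligner, counter and annotation served is not given in the sources used here. An Ovation kit amplified the cDNA, per the labels' protocols. No value at or below 0.1 RPKM is listed (smallest 0.101), and 12 symbols stand on 2 entries each, none of them a member. Absolute depth is unknown. Ratios of values under 0.3 RPKM to input 1 gave no clear relative depth (4 to 11 of 72 to 112 pairs in the most frequent bin).

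The test used log2(RPKM + 1) of the 12328 genes that reached 1 RPKM in 3 libraries or more, with limma 3.58.1 (variance trend, two-sided, no block) in R 4.3.3, and Benjamini-Hochberg adjustment over all genes. The scripts were tested on simulated data. Shares and subunit ratios used exact permutation tests, which ignore the pairing by challenge, and exact sign-flip tests, which use it. These and the plots were made in Python 3.11.15 with numpy 2.4.6, matplotlib 3.10.9 and pandas 2.3.3. Libraries with the same number come from the same warm challenge, per the labels, and count as paired, although the labels do not say whether they share tissue. Their deviations from the group means correlated by 0.055, 0.61 and 0.27 across genes for numbers 1, 2 and 3. Libraries with unlike numbers gave -0.52 to 0.18. Input 1 with IP 2 (0.16) and input 3 with IP 1 (0.18) exceeded the value for number 1, so these values do not show its pairing. The members and gene lists were chosen with earlier results of these data known. Besides the 6 members, the text names up to 3 genes per list past the threshold, or the 2 with the smallest p, and the 3 nearest profiles per member. Srf, Creb1, Atf3, Rps6ka3, Zfp36, Maff, Map2k2 and Fbxw7 were named after their values were seen. Alternatives changed the pseudocount, filter, scaling, trend, block and libraries.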

Additional observations from a re-analysis of the deposited data

How the results depend on the processing

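The 5 members higher in IP (Fos, Fosb, Fosl2, Jun and Junb) passed, and Jund did not, with the replicate block, pseudocounts of 0.1 and 5, no filter or one of 5 RPKM, median scaling, quantile normalization and no variance trend. With the replicate block 164 genes were higher (1.33%) and 492 lower, and the block changed no member's call. Median scaling left 128 genes lower and quantile normalization 124, against 406. Leaving out 1 library or 1 warm challenge gave 1 to 443 genes higher, 0 to 1250 lower (limma, with 1044 at an unadjusted p under 0.05 where it was 0) and 1 to 5 members higher, and these fits have fewer samples. Without challenge 2 or 3, Fosb was the member that passed. Every member kept a positive fold in these fits. Over single omissions the share difference between IP and input lay between -1.73 (without IP 1) and 4.87 points for Fos. For Junb it lay between -1.98 and 0.12 points, positive without input 2 and, at 0.095, without IP 1. The excess of Fos over Junb enrichment lay between -0.26 (without IP 1) and 0.617, and was -0.019 without input 3. The causes were not tested. The unknown depth limits the precision of low values such as those of Fosl1 in input.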
